A study of Caenorhabditis elegans with 7 samples.

Results

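The C-type lectin family of Caenorhabditis elegans was described here as every gene whose symbol is clec followed by a number, chosen from the count table by symbol alone. There were 240 such genes among the 46748 genes of the table. They carried 237 distinct symbols, and 3 symbols (clec-15, clec-209 and clec-249) each stood for a pair of copies that were kept apart by identifier. The libraries came from early, pre-gastrulation embryos of flp-21(ok889) mutants (4 libraries, numbered 11, 22, 29 and 30) and of wildtype animals, labelled N2 (3 libraries, numbered 11, 22 and 30). The gene flp-21 encodes a FMRFamide-like neuropeptide. All 240 members are annotated as protein-coding, and 40 share exon bases with another gene, where reads counted without strand are uncertain. Embryos were collected from mothers that held few eggs, and each library was made from total RNA. The labels do not say whether libraries of 1 genotype came from separate cultures, and the p-values below measure only how these samples vary, which may be technical variation. Unless a library is named, values are given in the order 11, 22, 29 and 30 for the mutant and 11, 22 and 30 for wildtype.

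C-type lectin domains are small, disulfide-bonded folds, many of which bind carbohydrates with the help of calcium. Nematode genomes hold many genes for such proteins, mostly secreted or membrane-bound. Several are made in the intestine and change when the animal meets pathogenic bacteria, so clec genes are often read as effectors of innate immunity. Many members have no known role.

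Total counts ran from 34164612 to 53620276 in mutant libraries and from 34262203 to 42988763 in wildtype libraries. Transcripts of flp-21 itself were too few to check the genotype labels, at 2, 1, 5 and 9 counts in the mutant, against 24, 2 and 6 counts in wildtype. The 29 oocyte and early embryo markers, such as oma-1 and mex-5, held 14055 to 18453 CPM in mutant libraries and 18149.8 to 23297 CPM in wildtype libraries, where CPM is counts scaled to library size by TMM. Of these 29 markers 9 fell (against 29.4% of all genes tested), 4 rose (against 9.01%) and 16 did not pass. Their median log2 fold change (mutant over wildtype) was 0.04, so the typical gene of the list did not fall. The mean of their summed level was lower in the mutant (16385 CPM, against 21193 CPM in wildtype). Among the falls was the eggshell gene cpg-2 (159 CPM in the mutant, against 3043 CPM in wildtype). Another was egg-1 (17.5 CPM in the mutant, against 453 CPM in wildtype). The yolk receptor gene rme-2 also fell (41.6 CPM in the mutant, against 863 CPM in wildtype). Adult tissues were looked at in the same way. Markers of adult intestine held 29.1, 1083, 1002 and 55.1 CPM in the mutant, against 49633, 54251 and 6903 CPM in wildtype. Sperm markers held 155 to 344 CPM in the mutant, against 9346 to 16496 CPM in wildtype. Cuticle collagens held 73.2, 1356, 1186 and 150.3 CPM in the mutant, against 7156 to 46393 CPM in wildtype. In bulk samples, fewer cells of a type and less RNA per cell cannot be told apart.

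Summed over all 240 members, clec transcripts had overlapping levels in the mutant and in wildtype, but the members held different shares of the sum. The sum was 5917, 6349, 6199.8 and 8980.0 CPM in the mutant, against 7430 CPM, 4229 CPM and 9867 CPM in wildtype. The means were 6861 ± 1424 CPM in the mutant (SD, n = 4) and 7175 ± 2828 CPM in wildtype (SD, n = 3). The 3 members with the highest mean TPM (counts scaled by exon length and depth) in the mutant were clec-87, clec-88 and clec-91. They took 98.2% to 99.0% of the sum in each mutant library, against 33.2%, 44.2% and 84.0% in wildtype. Since they were picked by their mutant level, the split favours a large share and a small remainder in the mutant. By mean TPM in wildtype, clec-63 (798) lay above clec-88 (765) and clec-91 (674). The other 237 members together held 58.7, 115, 107 and 89.3 CPM in the mutant libraries. In wildtype they held 4963, 2359 and 1579 CPM, so the groups did not overlap for this remainder (92.5 ± 25.01 CPM in the mutant, against 2967 ± 1772 CPM in wildtype).

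**Figure D1:**
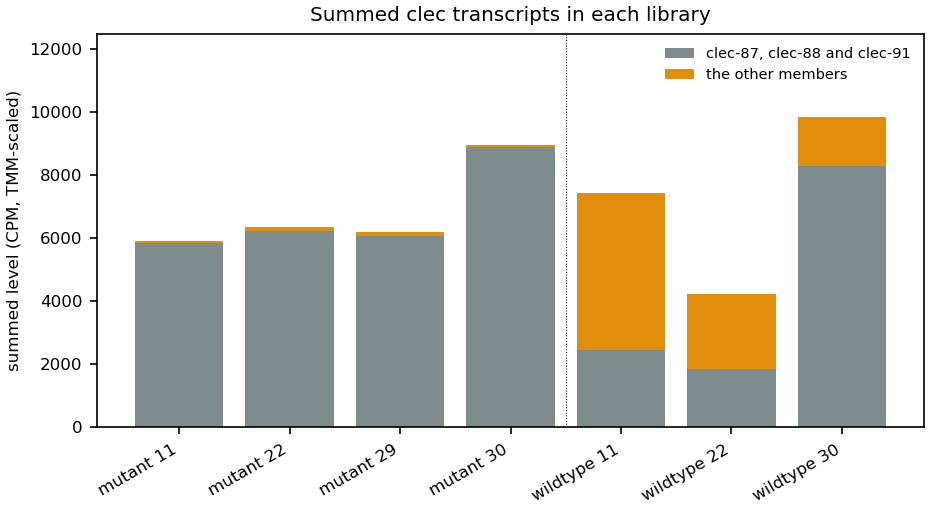
Bars give the summed CPM (TMM-scaled) of all 240 clec genes in each library, 4 mutant libraries on the left and 3 wildtype libraries on the right, with grey for clec-87, clec-88 and clec-91 and orange for the other 237 members. The orange part is 58.7 to 115 CPM in the mutant libraries and 1579 to 4963 CPM in the wildtype libraries.

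The 3 abundant members were among the most abundant protein-coding transcripts of the embryos. Levels between genes were compared as TPM, that is scaled by exon length and depth. Per length, clec-87 (WBGene00007709, chromosome I from 10184244 to 10185468 in build WBcel235, minus strand) stood at 5209.8, 6192, 6128 and 4954 TPM in the mutant libraries. In wildtype it stood at 1821, 1324 and 4088 TPM. Among 19641 protein-coding genes these levels ranked 6, 4, 4 and 9 in the mutant, against 106, 139 and 10 in wildtype. The ranks of clec-88 ran from 34 to 57 in the mutant and from 127 to 370 in wildtype, and those of clec-91 from 29 to 48 in the mutant and from 162 to 380 in wildtype.

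None of the 3 passed the test between the genotypes. The level of clec-87 was 3537, 4201, 4058 and 5054 CPM in the mutant, against 1624, 1229 and 5412 CPM in wildtype. Wildtype library 30 was thus the highest of all 7 and wildtype libraries 11 and 22 were the lowest. The log2 fold change of clec-87 was 0.61 (mutant over wildtype, SE 0.52, edgeR quasi-likelihood adjusted p = 0.389). For clec-88 (WBGene00019606, chromosome II from 6365740 to 6366948, plus strand) wildtype libraries 11 and 22 were again the lowest and wildtype library 30 was second to mutant library 30, at 1326, 1229.5, 1262 and 1925 CPM in the mutant, against 509, 378 and 1781 CPM in wildtype. The log2 fold change of clec-88 was 0.69 (SE 0.54, edgeR adjusted p = 0.345). For clec-91 (WBGene00014117, chromosome I from 9126137 to 9127072, minus strand) mutant library 30 was highest at 1912 CPM and the other mutant libraries held 772 to 996 CPM. Wildtype held 334, 262 and 1095 CPM, a log2 fold change of 0.99 (SE 0.57, edgeR adjusted p = 0.201).

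Without wildtype library 30 the log2 fold changes were 1.69 for clec-87, 1.82 for clec-88 and 2.04 for clec-91, and all 3 passed (edgeR adjusted p = 0.00116, 0.00199 and 0.00628). With wildtype library 30 as the lone wildtype library, clec-87 turned to -0.14 and clec-88 to -0.08. With scaling by library size alone clec-91 also passed (log2 fold change 1.33, edgeR adjusted p = 0.046), as it did in the fit with the library number as a block (log2 fold change 1.37, edgeR adjusted p = 0.0226). All 3 genes share exon bases with a neighbouring gene in the annotation, clec-87 with iars-2 and clec-91 with ZK858.8 on the opposite strand and clec-88 with ctsa-4.1 on the same strand.

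A further gene, clec-90, which lies on the same chromosome as clec-87 and clec-91 (WBGene00019009, chromosome I from 4845013 to 4847336), was the only member called higher in the mutant by the edgeR fit. It held 9.72, 13.1, 13.3 and 12.7 CPM in the mutant, against 4.47, 4.17 and 5.96 CPM in wildtype, with no overlap. This was a 2.51-fold difference (log2 fold change 1.33, SE 0.43, edgeR adjusted p = 0.0339). The call was lost with upper quartile scaling (adjusted p = 0.0622), with no filter on low counts (0.0613) and without mutant library 11, 22 or 29 or wildtype library 11 (0.0675, 0.0948, 0.104 and 0.0559). It was lost too with mutant libraries 11 and 30 alone (0.192) and in the fit with the library number as a block (0.104). With wildtype library 30 as the lone wildtype library the log2 fold change of clec-90 was 1.25. Reads of clec-90 and the overlapping glo-2, on the same strand, cannot be told apart with certainty. The low-level gene clec-58 also had no overlap, at 0.268 to 0.381 CPM in the mutant, against 0.0377 to 0.147 CPM in wildtype, and did not pass (log2 fold change 1.96, SE 0.72, edgeR adjusted p = 0.0535). With 233, 243, 205 and 225 codons, clec-87, clec-88, clec-90 and clec-91 all lay under the family's median of 316.5 codons.

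The large majority of the other expressed members were lower in the mutant embryos, most of them by more than 8-fold (51 of 57, against 2720 of the 3829 genes of the whole table that fell). Of the 240 members, 74 passed the filter on low counts (30.8%, against 27.9% of all genes in the table, coding or not). Only 19641 genes of the table are annotated as protein-coding, as all members are. Shares over protein-coding genes alone were not computed. Of those 74, 57 fell (77%, against 29.4% of all genes tested), 1 rose (1.35%, against 9.01%) and 16 did not pass, by the edgeR quasi-likelihood test at an adjusted p of 0.05. The libraries of the genotypes did not overlap for 58 tested members with the mutant lower (78.4%, against 30.5% of all genes tested) and for 2 with the mutant higher (2.7%, against 14.1%). The median log2 fold change was -5.17 over the 74 tested members and -0.21 over all 13035 genes tested. Among the genes that fell it was -6.18 for clec members and -4.07 for all genes. Members that passed the filter through the wildtype libraries alone had to differ, so these figures describe the tested members and not the family. The authors' deposited table of their own comparison lists 3791 genes. In it 49 of the 240 members were listed as lower (against 6.58% of all genes, coding or not) and 0 as higher (against 1.53%). All 49 also fell in the edgeR fit, and 8 members fell there that the authors' deposited table does not list.

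These figures changed in some alternatives. With a filter of 5 CPM in 3 libraries 19 of 25 tested members fell (against 20.3% of all genes tested in that fit). The fit with wildtype library 30 as the lone wildtype library holds no spread between wildtype libraries. Its median log2 fold change over the tested members was -3.37. Leaving out 1 library at a time gave 50 to 63 falls among 68 to 82 tested members (against 23.3% to 33.8% of all genes tested in those fits).

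**Figure D2:**
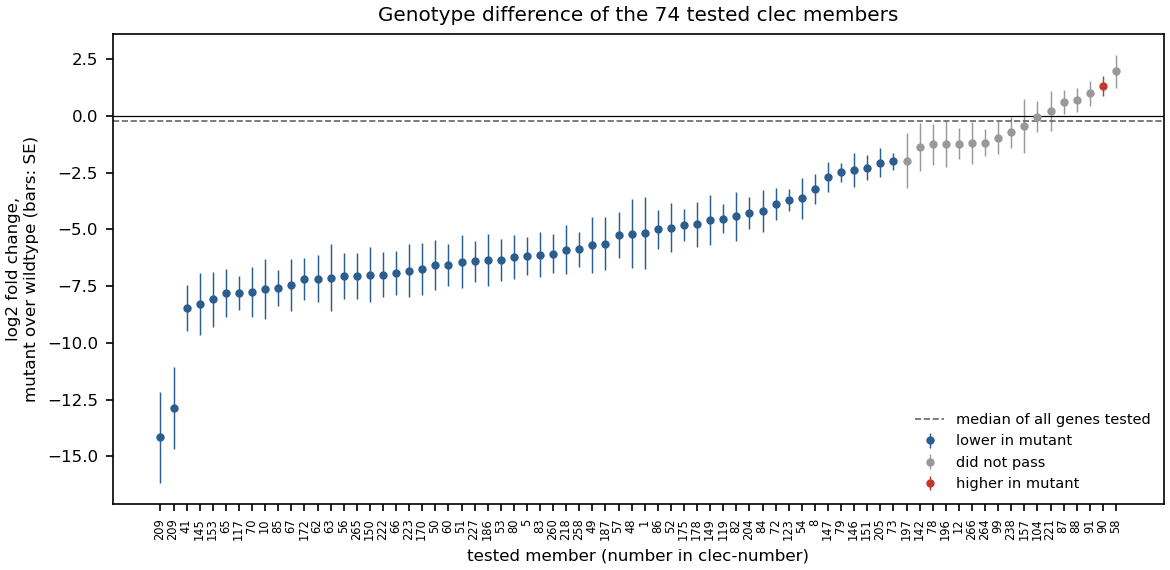
Points are log2 fold changes (mutant over wildtype, edgeR) of the 74 tested clec members in rising order, with bars for the SE, and the dashed line is the median of all genes tested (-0.21). The 57 members in blue passed as lower, from -14.17 to -2.004, and the 1 member in red, clec-90, passed as higher.

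The pair of clec-209 copies on chromosome V had the largest falls over all 7 libraries. Both have 891 exon bases and 296 codons, one (WBGene00021224) from 2351676 to 2352932 and the other (WBGene00018910) from 2459637 to 2460893. For WBGene00021224 the counts were 3, 4, 1 and 2 in the mutant, against 52936, 4549 and 150 counts in wildtype. Wildtype library 11 was thus far above the other wildtype libraries, and library 30 was 208-fold lower in CPM. The log2 fold change of WBGene00021224 was -12.87 (SE 1.81, edgeR adjusted p = 8.16e-04), and that of WBGene00018910 was -14.17 (SE 1.99). The size rests on wildtype library 11, since without it the values were -10.15 and -11.52. With wildtype library 30 as the lone wildtype library they were -6.35 and -7.43, and clec-117 fell more, at -8.11. In wildtype library 11 the reads were split evenly over the copies, with 49.99% on WBGene00021224 (95% exact interval 49.7% to 50.3%, counting error only). Whether the reads were assigned to the right copy was not tested. Per length the copies stood at 0.105 ± 0.0787 and 0.0318 ± 0.0491 TPM in the mutant (SD, n = 4), against 619 ± 914 and 620.0 ± 914 TPM in wildtype (SD, n = 3). The copies of clec-15 had at most 4 counts in any library and those of clec-249 had 0 in all 7, and 0 counts leave room for up to 3.

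Members known to respond to bacteria had mutant means under 1 CPM wherever they could be tested. A list of 19 clec genes reported to change on bacterial exposure, put together with earlier results of these data known, held 12 tested members, and all 12 fell (against 29.4% of all genes tested) with a median log2 fold change of -6.75 (-6.46 with clec-70 at its lower bound). With such low mutant levels these members passed the filter through the wildtype libraries and had to come out lower, so the count is a description. The list summed to 0.584, 3.89, 3.58 and 0.972 CPM in the mutant, against 237, 219 and 119 CPM in wildtype. The p38 kinase target clec-85 (WBGene00021872, chromosome IV from 2854346 to 2855456) held 0.0244, 0.459, 0.470 and 0.191 CPM in the mutant, against an even 54.8, 57.2 and 55.4 CPM in wildtype, a log2 fold change of -7.59 (SE 0.79, edgeR adjusted p = 2.08e-04).

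Another p38 target, clec-67, held 0, 0.108, 0.199 and 0 CPM in the mutant, against 19.5, 16.7 and 6.41 CPM in wildtype (log2 fold change -7.45, SE 1.15, edgeR adjusted p = 0.00107). For clec-60, which is induced by Gram-positive pathogens, the mutant libraries had 2 counts in all and the wildtype libraries 143, 126 times as much after scaling (exact 95% limits 34.2 and 1049.7, counting error only). The Serratia-responsive clec-49 held 0 to 1.70 CPM in the mutant, against 25.3 to 54.8 CPM in wildtype (log2 fold change -5.69, edgeR adjusted p = 0.00512). The mutant libraries had 0 counts of clec-70 and the wildtype libraries 71, so that it was at least 41.7-fold higher in wildtype, taking 3 counts over the mutant group as the floor. Others of the list that fell were clec-41, clec-65, clec-66, clec-72, clec-82, clec-86 and clec-186. The remaining 7 of the list, clec-4, clec-7, clec-39, clec-42, clec-61, clec-71 and clec-174, stayed under the filter with at most 44 counts in any library. Among them clec-39, also known from Serratia infection, ran the other way, with 1, 3, 14 and 2 counts in the mutant, against 0 in each wildtype library, too few for a test. With wildtype library 30 as the lone wildtype library, clec-49, clec-72, clec-82 and clec-186 of the list no longer passed, and clec-70 and clec-86 were under the filter.

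Other genes of the immune response were set beside the clec list. Of 30 tested effectors outside the clec family (lysozymes, saposin-like proteins and other antimicrobial genes) 27 fell (90%, against 29.4% of all genes tested) and 0 rose, with a median log2 fold change of -6.32. The saposin-like gene spp-8 held a mean of 0.0546 CPM in the mutant, against 22.6 CPM in wildtype. Among 36 tested signalling genes the median log2 fold change was -0.32. Of these 9 fell (25%, against 29.4% of all genes tested) and 3 rose (8.33%, against 9.01%), shares near those of all genes. The whole signalling list summed to 1094 to 1818 CPM in the mutant, against 950.3 to 1081 CPM in wildtype, without overlap. Those that rose were daf-4, a TGF-beta receptor gene, at 112.9 CPM in the mutant, against 40.3 CPM in wildtype, the p38 pathway kinase gene nsy-1, at 64.2 CPM in the mutant, against 22.1 CPM in wildtype, and the stress response factor gene skn-1, at 495 CPM in the mutant, against 231 CPM in wildtype. Of those that fell, the GATA factor gene elt-2, which directs intestinal transcription and stood in the adult intestine list too, held 0.139 CPM in the mutant, against 5.38 CPM in wildtype (edgeR adjusted p = 0.0052). The leucine zipper factor gene zip-2 held 2.48 CPM in the mutant, against 62.3 CPM in wildtype, and the receptor gene fshr-1 held 0.104 CPM in the mutant, against 5.41 CPM in wildtype (edgeR adjusted p = 0.00101 and 0.0027). Adult intestine markers fell in 24 of 25 tested cases over the same libraries, cuticle collagens in 66 of 109 and sperm markers in 58 of 64, and their part in the clec differences was not tested.

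The most abundant of the members that fell, by mean CPM over the libraries, was clec-63 (WBGene00009394, chromosome II from 12895638 to 12897462, plus strand). It held 0.0244, 13.6, 11.96 and 0.953 CPM in the mutant libraries. In wildtype it held 1108, 883 and 791 CPM, a log2 fold change of -7.13 (SE 1.46, edgeR adjusted p = 0.00457). The mutant libraries thus differed widely among themselves, with libraries 22 and 29 high and 11 and 30 low, and lay below every wildtype library. In the fit with the library number as a block the call of clec-63 was lost (log2 fold change -9.60, edgeR adjusted p = 0.0844). With wildtype library 30 as the lone wildtype library the log2 fold change of clec-63 was -6.74.

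Members with falls of like size lay on several chromosomes. On chromosome V clec-41 held 0, 0.0541, 0.0542 and 0.0381 CPM in the mutant, against 16.04, 23.7 and 2.71 CPM in wildtype (log2 fold change -8.46, SE 1.02, edgeR adjusted p = 3.97e-04). On chromosome II clec-65, which neighbours clec-63, held 0 to 0.361 CPM in the mutant, against 15.7 to 43.0 CPM in wildtype (log2 fold change -7.80, SE 1.05, edgeR adjusted p = 6.05e-04). For clec-10, on the same chromosome, 3 mutant libraries were at 0 and library 29 held 0.253 CPM, against 8.22 to 18.6 CPM in wildtype. On chromosome III clec-150 was even across wildtype, with 0.0487, 1.05, 0.741 and 0 CPM in the mutant, against 62.5, 52.6 and 61.4 CPM in wildtype (log2 fold change -6.999, edgeR adjusted p = 0.00176). On chromosome X clec-265 held 0 to 0.189 CPM in the mutant, against 4.86 to 15.04 CPM in wildtype. In all 5 genes the groups did not overlap.

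The neighbouring genes clec-49 and clec-50 on chromosome V and clec-48 on the same chromosome, each of 321 codons, had the same shape. The level of clec-50 was 0.0974, 4.76, 4.86 and 0.667 CPM in the mutant, against 336, 245 and 169 CPM in wildtype (log2 fold change -6.59, SE 1.10, edgeR adjusted p = 0.00151). For clec-48 mutant libraries 22 and 29 held 4.14 and 3.43 CPM and libraries 11 and 30 held 0.0244 and 0 CPM, against 41.1 to 114 CPM in wildtype. The log2 fold change of clec-48 was -5.19 (SE 1.52, edgeR adjusted p = 0.0236), and the call was lost without mutant library 29 or wildtype library 11 (adjusted p = 0.0694 and 0.0795), with no filter (0.11) and with wildtype library 30 as the lone wildtype library (0.174). The fall of clec-1 was likewise uneven, from 0 to 2.86 CPM in the mutant and from 7.58 to 128 CPM in wildtype (log2 fold change -5.16, edgeR adjusted p = 0.0282), and was lost without mutant library 22 or 29 or wildtype library 11 (adjusted p = 0.0607, 0.0734 and 0.159) and with no filter (0.12). With wildtype library 30 as the lone wildtype library the log2 fold change of clec-1 was -2.22 (adjusted p = 0.429), and without wildtype library 11 it was -3.21.

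**Figure D3:**
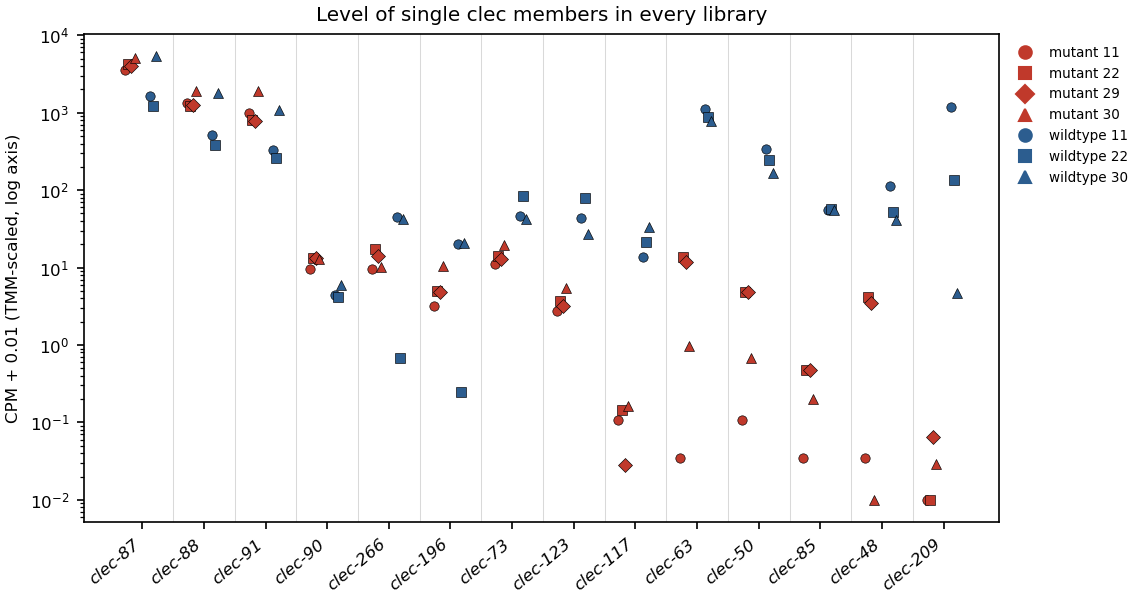
Points are the level of 14 clec members in each library, as CPM + 0.01 on a log axis, with the mutant in red on the left of each gene and wildtype in blue on the right, a symbol for each library number, and clec-209 shown for WBGene00018910. For clec-63, clec-50 and clec-48 mutant libraries 22 and 29 lie above 11 and 30, and for clec-266 and clec-196 wildtype library 22 lies below every other library.

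This split of the mutant libraries was common in the family. Of the 44 members that fell and had a mean of at least 1 CPM, mutant libraries 22 and 29 were both above libraries 11 and 30 for 26 (59.1%), against 41.5% of all 3053 genes that fell and had such a mean. For the 22 of them with reads in mutant library 11 or 30, the mean of libraries 22 and 29 was 2.79 to 310.8 times that of 11 and 30 over these members, with a median of 14.2. Among genes of the other lists that fell with such a mean, the same split was found for 22 of 24 adult intestine markers. It was found for 51 of 56 collagens, 12 of 12 body wall muscle genes and 0 of 56 sperm genes. Oocyte and early embryo markers had it in 7 of 9 cases and neuron genes in 2 of 2. So did 16 of 24 immune effectors outside the clec family and 3 of 6 immune signalling genes. Without libraries 22 and 29, which leaves 2 mutant libraries, 56 of 80 tested members fell (against 21.1% of all genes tested in that fit). The median log2 fold change of the tested members was -6.37. Which tissue the clec transcripts came from was not tested.

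In wildtype, 27 of the 44 members were highest in library 11 (61.4%, against 41.9% of all genes that fell with such a mean), 14 in library 22 (31.8%, against 44.7%) and 3 in library 30 (6.82%, against 13.4%). Library 30 was the lowest wildtype library for 39 of the 44 members (88.6%, against 65.2%). The 3 members with their peak in library 30 were clec-117, clec-52 and clec-227. The level of clec-117 was 0.0974, 0.135, 0.0181 and 0.153 CPM in the mutant, against 13.7, 21.6 and 33.0 CPM in wildtype (log2 fold change -7.80, SE 0.75, edgeR adjusted p = 1.47e-04). Sperm genes were mostly highest in wildtype library 30, for 38 of 56 that fell with such a mean. Adult intestine markers were lowest there for 22 of 24, oocyte and early embryo markers for 8 of 9 and collagens for 20 of 56.

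**Figure D4:**
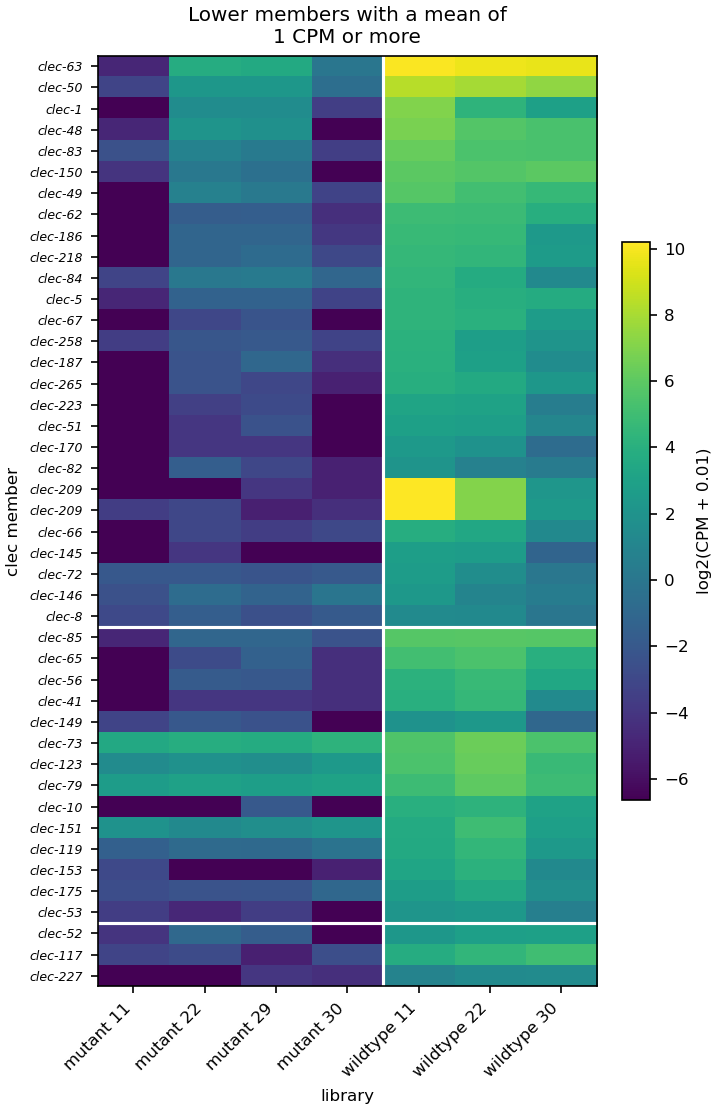
Each row is 1 of the 44 clec members that fell and had a mean of at least 1 CPM, each column a library (mutant left, wildtype right), and the colour is log2(CPM + 0.01). White lines part the 27 members highest in wildtype library 11, the 14 highest in library 22 and the 3 highest in library 30, and 26 rows are brighter in mutant libraries 22 and 29 than in 11 and 30.

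A set of members of like coding length stood apart from this pattern. The genes clec-73, clec-79, clec-119, clec-123, clec-151, clec-153 and clec-175 code for 569 to 605 codons and lie on chromosomes II, III and IV. All 7 fell, with log2 fold changes from -8.09 to -2.004, and all 7 were highest in wildtype library 22, against 7 of the other 37 members that fell with a mean of at least 1 CPM. For 0 of the 7 were mutant libraries 22 and 29 above 11 and 30, against 26 of the other 37. This length class was picked after the values were seen and was not tested. Greater length alone did not mark the set. Exon length was 1787 to 1906 bases for clec-153, clec-151, clec-73 and clec-119. With 2056 and 1956 exon bases, clec-67 and clec-41 had mutant libraries 22 and 29 above 11 and 30. In wildtype clec-67 was highest in library 11 and clec-41 in library 22. Of 2 further members of like length, clec-43 and clec-122, both stayed under the filter.

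The best expressed members of this length class kept sizeable levels in the mutant. Transcripts of clec-73 (WBGene00021579, chromosome IV from 3953935 to 3956206) stood at 11.3, 14.3, 13.01 and 19.3 CPM in the mutant, against 46.4, 85.2 and 42.5 CPM in wildtype. This was the smallest fall among the 57 (4.01-fold, log2 fold change -2.004, SE 0.39, edgeR adjusted p = 0.00317). In the same cluster clec-79 stood at 6.33 to 8.52 CPM in the mutant, against 29.3 to 64.4 CPM in wildtype (log2 fold change -2.48, edgeR adjusted p = 0.00159). On chromosome III the neighbours clec-151 and clec-153 differed in the size of their fall. The level of clec-151 was 3.90, 2.51, 3.16 and 4.38 CPM in the mutant, against 12.7, 30.8 and 7.16 CPM in wildtype (log2 fold change -2.27, edgeR adjusted p = 0.0102). For clec-153 the mutant held 0.122, 0, 0 and 0.0191 CPM and wildtype 9.37, 17.95 and 2.56 CPM (log2 fold change -8.09, edgeR adjusted p = 9.37e-04). The call of clec-151 was lost without wildtype library 22 (edgeR adjusted p = 0.0686), which was 1 of 4 alternatives, among 18, in which its result changed. Its log2 fold change ran from -2.54 to -0.80 over the alternatives.

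Among the 16 tested members that did not pass, clec-266, clec-196 and clec-78 shared a drop in wildtype library 22. The counts of clec-266 (WBGene00016088, chromosome X from 6617441 to 6622892) were 397, 635, 792 and 526 in the mutant, against 2042, 23 and 1121 in wildtype. Wildtype library 22 was below every mutant library and the other wildtype libraries were above them. The log2 fold change was -1.20 (SE 0.92, edgeR adjusted p = 0.34), and -1.66 without wildtype library 22, when the gene passed (adjusted p = 0.0137). Likewise clec-196 had 131, 184, 270 and 544 counts in the mutant, against 913, 8 and 553 in wildtype. Of the alternatives run, it passed only without wildtype library 22 (log2 fold change -1.70, edgeR adjusted p = 0.0352). The longest member, clec-78 with 3514 codons, had 129, 177, 245 and 187 counts in the mutant, against 1057, 22 and 110 in wildtype (edgeR adjusted p = 0.309). Exons of clec-266 overlap those of kqt-1 on the opposite strand. The low-level members clec-104 and clec-221 had log2 fold changes of -0.04 (SE 0.68) and 0.21 (SE 0.88).

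Most of the family had few or no counts in these embryos. Of 240 members 166 stayed under the filter, and 33 had 0 counts in all 7 libraries. The untested members together had 116, 155, 235 and 191 counts in the mutant, against 1079, 397 and 245 counts in wildtype. At least 10 counts were found for 21, 40, 52 and 34 members in the mutant, against 95, 74 and 75 members in wildtype. The highest untested member was clec-173, with 1, 8, 7 and 8 counts in the mutant, against 243, 156 and 7 in wildtype. A single library held all 82 counts of clec-230, wildtype library 11. At 0 counts in every mutant library and some in wildtype were 38 members, and the reverse held for 27.

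Tested and untested members were grouped along the chromosomes. The 86 members on chromosome V, 53 on IV, 48 on II, 36 on I, 14 on III and 3 on X were tested in 24.4%, 39.6%, 33.3%, 19.4%, 42.9% and 100% of cases. Members no farther than 20 kb from the next formed 14 clusters of at least 4 genes, which held 88 members. The falls in clusters stand beside falls in 77% of all tested members and 29.4% of all genes tested. The cluster from clec-80 to clec-85 on chromosome IV (2823746 to 2855456) had all 5 members tested and lower, with log2 fold changes from -7.59 to -4.17. The cluster from clec-62 to clec-66 on chromosome II (12893064 to 12906607) had 4 of 5 members tested, all lower, from -7.80 to -6.93. On chromosome V the cluster from clec-57 to clec-55 (14469217 to 14482195) likewise had 4 of 5 members tested, all lower, from -7.05 to -3.63. In the 92.1 kb cluster on chromosome IV that holds clec-67, clec-73 and clec-78, 6 of 12 members were tested and 5 fell. In contrast, 0 of 13 members of the cluster from clec-40 to clec-33 on chromosome V (16839145 to 16869845) reached 10 counts in any library. The same held for 0 of 7 members from clec-250 to clec-257 on V and 0 of 7 from clec-127 to clec-134 on II, of which 6 had no count at all. Members of a cluster share position and often sequence and are not independent.

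**Figure D5:**
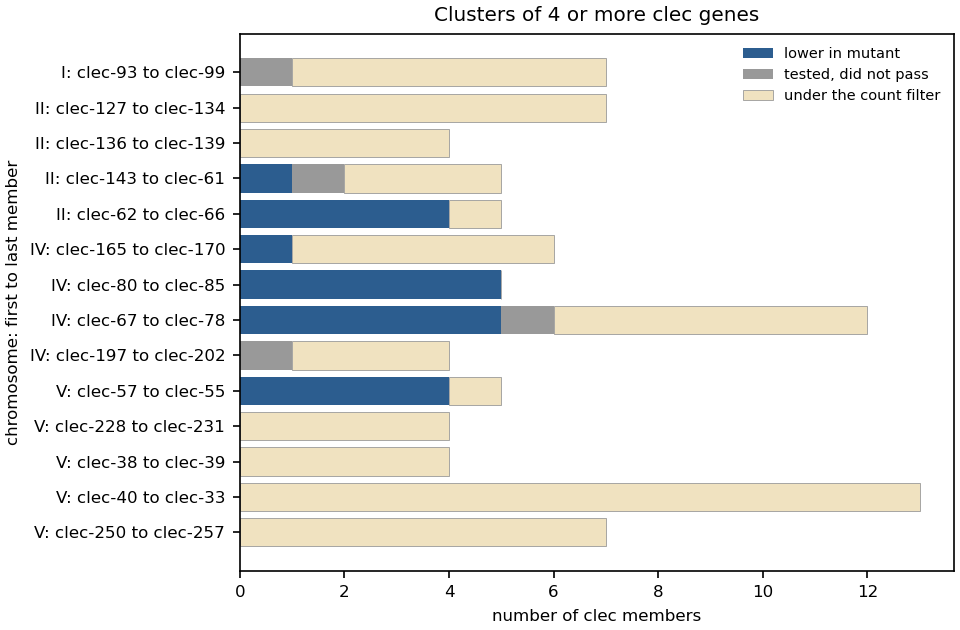
Bars count the members of the 14 clusters of at least 4 clec genes, named by chromosome and by first and last member, split into those lower in the mutant, those tested that did not pass and those under the count filter. The clusters from clec-80 to clec-85, clec-62 to clec-66 and clec-57 to clec-55 hold 5, 4 and 4 lower members. The largest, of 13 members, holds no tested member. Of all tested members 77% fell, against 29.4% of all genes tested.

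The mutated gene lies on chromosome V, from 7793365 to 7794021, with many clec genes. On V 18 of 21 tested members fell (85.7%), and on the other chromosomes 39 of 53 did (73.6%), against 29.4% of all genes tested on any chromosome. Shares of all genes by chromosome or by distance from flp-21 were not computed. Within 5 Mb of flp-21 4 of 5 tested members fell, and elsewhere 53 of 69 did (76.8%). Falls were found on all 6 chromosomes, with 13 of 16 tested members on II, 18 of 21 on IV, 5 of 6 on III, 2 of 3 on X and 1 of 7 on I. A link between position and the falls was not tested. Chromosome I carried clec-87, clec-90 and clec-91, and its single fall was that of clec-53, at 0 to 0.0731 CPM in the mutant, against 1.55 to 5.13 CPM in wildtype.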

How the data were processed

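The authors deposited raw read counts for 46748 genes, made with featureCounts 1.6.4 on exons, per the file headers. The submitters' processing notes also name BWA and DESeq2 and build WBcel235. The command gives no option for strand or multiply mapped reads, so overlapping genes and near-identical copies are uncertain. The header also lists a wildtype alignment numbered 29 that has no column and was not analysed here. The authors' deposited table of their own comparison gives log2 fold changes, p-values and a mean signal for the genes it lists.

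Identifiers were matched to symbols with Ensembl release 115 (build WBcel235) and a gene name table, which covered 43693 of them. The 25 clec pseudogenes that RefSeq names, and 3 further entries that the authors' table names clec, were not used here. No table of sequences was used.

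All genes were fitted with edgeR 4.0.16 in R 4.3.3 (quasi-likelihood F-test, robust, TMM, filterByExpr, genotype as the only term, Benjamini-Hochberg, threshold 0.05). It tested 13035 genes. The SE is the log2 fold change divided by the square root of F. TPM were computed from counts and exon length. Alternatives covered scaling, tool (DESeq2 1.42.0), filter, libraries, ribosomal RNA and the label's library number as a block. Another was added after seeing the data, libraries 11, 22 and 30 unpaired.

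The members and lists were chosen with earlier results of these data known. Named members were the 12 largest changes without overlap whose mean reached 5 CPM, every rise, the highest TPM, the list tied to bacteria, the 5 highest that did not pass, those peaking in 1 wildtype library, and the leading member of each cluster. For other lists the rule took the genes with the smallest p-values. The members clec-43, clec-53, clec-58, clec-78, clec-79, clec-104, clec-122, clec-123, clec-173, clec-175, clec-221 and clec-227, and the genes daf-4, nsy-1 and skn-1, were named after their values were seen. Intervals and limits from counts cover counting error only.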

Additional observations from a re-analysis of the deposited data

Results flagged for a closer look

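Of 32 values checked in the group of 4 mutant libraries, 7 had 1 library far from the others, where chance flags about 1 in 20. The summed clec level of mutant library 30 was 8980.0 CPM, against 5917 to 6349 CPM in the other mutant libraries. The same library held 1925 CPM of clec-88, against 1229.5 to 1326 CPM. Mutant library 11 was low for clec-90, at 9.72 CPM against 12.7 to 13.3 CPM, and for clec-99, at 0.0974 CPM against 0.267 to 0.297 CPM. Mutant library 29 was the only mutant library with reads of clec-10, at 0.253 CPM. It was low for clec-72, at 0.199 CPM against 0.243 to 0.248 CPM, and high for clec-29, at 0.199 CPM against 0.0541 to 0.0731 CPM. For clec-10, clec-29, clec-72 and clec-99 these levels rest on fewer than 20 counts in each mutant library.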

How the results depend on the processing

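The count of 57 falls was within 1.5 times in all alternatives run except the filter of 5 CPM (19) and wildtype library 30 alone (32), and ran from 50 to 63 with 1 library left out. The single rise was less firm: 0 rose with upper quartile scaling, no filter, wildtype library 30 alone, mutant libraries 11 and 30 alone, and libraries 11, 22 and 30 unpaired (2, 5, 4, 0 and 2 at an unadjusted edgeR p under 0.05). With DESeq2 1 rose, with DESeq2 size factors or ribosomal RNA removed 2, with library size alone 3, and 0 to 4 with 1 library left out. The median log2 fold change of -5.17 was -1.92 with DESeq2 and -2.10 with no filter, where 207 members entered. It was -3.37 with wildtype library 30 alone, -6.37 with mutant libraries 11 and 30 alone, and -5.68 to -4.78 with 1 library left out. In the fit with wildtype library 30 alone clec-87 (-0.14) and clec-88 (-0.083) reversed, and the cause was not tested. At 1 count in place of 10, 111.5 members per mutant library and 134 per wildtype library were detected. With the replicate number as a block 52 of 83 tested members fell, against 23.7% of all genes tested, and the median was -5.14. The 1 member that rose there was clec-91 (adjusted p = 0.0226 by edgeR). Calls lost there included those of clec-63 (edgeR adjusted p = 0.0844), clec-90 (0.104), clec-48 (0.124) and clec-1 (0.168). In the same libraries unpaired clec-90 (0.104), clec-48 (0.0694) and clec-1 (0.0734) were lost too. Deviations of same-numbered libraries correlated at 0.0583, 0.12 and 0.51 for 11, 22 and 30, and mutant library 11 correlated best with wildtype library 22, so the numbers were not taken as pairs. The median of all genes tested was 0.01 with library size alone, -0.06 with DESeq2 size factors and -0.42 with upper quartile scaling. Depth limits statements on the 166 untested members.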
